A study of Mus musculus with 17 samples.

Results

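The KDEL receptors and p24 cargo proteins are 8 genes, Kdelr1, Kdelr2, Kdelr3, Tmed2, Tmed3, Tmed7, Tmed9 and Tmed10, taken by symbol from the 55421 genes of a total RNA-Seq count table of cultured mouse lung fibroblasts, and all 8 had a row. All 17 mice carried floxed Ephb4 alleles together with Col1a2-CreERT2 (Ephb4 f/f; Col1a2-CreERT2), a tamoxifen-inducible Cre driven by the promoter of a type I collagen gene, so that recombination is limited to cells that use this promoter. From 4 weeks of age, Ephb4 CKO mice received 4-hydroxytamoxifen at 1 mg/day for 5 days and Ephb4 control mice received corn oil, and at 6 weeks of age the airways were instilled with bleomycin (1.2 U/kg), which injures the lung and provokes fibrosis, or with PBS. Cells were grown from the lungs 14 days later, passaged a single time and sequenced, with 1 mouse per library: Ephb4 control PBS (n = 4), Ephb4 control bleomycin (n = 4), Ephb4 CKO PBS (n = 5) and Ephb4 CKO bleomycin (n = 4).

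KDEL receptors are membrane proteins of the Golgi that catch soluble endoplasmic reticulum (ER) proteins, such as chaperones ending in the amino acids KDEL, when these escape with secretory cargo, and send them back to the ER in COPI-coated vesicles. The p24 proteins, named Tmed, span the membrane once, form complexes with each other, cycle between the ER and the Golgi in COPII and COPI vesicles and help to load cargo such as GPI-anchored proteins. Collagen-secreting fibroblasts use this route heavily, and several of its genes are known targets of the unfolded protein response, which raises ER capacity through the factors XBP1, ATF6 and the CREB3 family.

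Promoter windows from RefSeq (GRCm38.p6, 250 bases before to 50 bases after the annotated start) were used for 5 of the 8 genes. Windows are shown for Kdelr3, whose level varied most between libraries, for Kdelr1, the receptor that varied least, and for Tmed9 and Tmed10, whose fold changes between Ephb4 CKO and Ephb4 control after bleomycin had opposite signs. Capitals mark the core letters ACGTGG, read on either strand, and in Kdelr3 the longer TGACGTGG, a sequence that XBP1 and ATF6 are known to bind and that contains the core.
Kdelr3, chr15:79516158-79516457, + strand: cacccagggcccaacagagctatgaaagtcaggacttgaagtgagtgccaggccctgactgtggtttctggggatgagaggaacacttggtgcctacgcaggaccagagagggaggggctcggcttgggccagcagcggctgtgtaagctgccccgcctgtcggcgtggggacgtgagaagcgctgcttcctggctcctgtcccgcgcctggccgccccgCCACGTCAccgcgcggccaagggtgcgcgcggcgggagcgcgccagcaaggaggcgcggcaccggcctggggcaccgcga
Kdelr1, chr7:45872590-45872889, + strand: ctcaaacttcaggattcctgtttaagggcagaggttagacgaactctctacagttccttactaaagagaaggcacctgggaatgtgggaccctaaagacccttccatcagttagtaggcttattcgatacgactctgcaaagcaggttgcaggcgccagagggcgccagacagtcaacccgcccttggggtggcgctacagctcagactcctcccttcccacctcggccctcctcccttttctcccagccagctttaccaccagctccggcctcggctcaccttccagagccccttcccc
Tmed9, chr13:55592885-55593184, + strand: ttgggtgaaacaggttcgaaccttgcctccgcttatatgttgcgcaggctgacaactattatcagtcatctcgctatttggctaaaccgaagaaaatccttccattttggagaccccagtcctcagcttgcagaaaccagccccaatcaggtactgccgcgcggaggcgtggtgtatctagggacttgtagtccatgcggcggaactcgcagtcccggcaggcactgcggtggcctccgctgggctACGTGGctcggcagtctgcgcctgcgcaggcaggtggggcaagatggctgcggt
Tmed10, chr12:85374668-85374967, - strand: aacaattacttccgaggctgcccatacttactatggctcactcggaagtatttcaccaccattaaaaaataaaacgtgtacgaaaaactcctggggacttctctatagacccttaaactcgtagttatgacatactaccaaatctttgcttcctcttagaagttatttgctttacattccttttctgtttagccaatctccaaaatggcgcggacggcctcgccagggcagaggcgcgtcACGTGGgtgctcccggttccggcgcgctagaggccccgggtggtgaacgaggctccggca
TGACGTGG stood in 1 window of these genes, that of Kdelr3, as its reverse complement CCACGTCA from 30 to 23 bases before the start, and in 0.676% of all 32851 windows. The core ACGTGG, chosen for the search after these windows had been read, stood in those of Kdelr3, Tmed3, Tmed9 and Tmed10 and not in that of Kdelr1, against 8.31% of all windows. The ER stress element ERSE, CCAAT and CCACG 9 bases apart, stood in 0.119% of all windows and in none of these 5, while 5 of the 18 soluble ER residents with a window held it, Hspa5, Hsp90b1 and Calr among them. ERSE-II, ATTGG and CCACG 1 base apart, stood in 0.0365% of all windows and in none of these 5. A match of letters describes the window and does not show that a factor was bound there.

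The targeted gene was measured first. Ephb4 stood at 65.1, 13.1, 35.3 and 40.5 CPM (counts scaled to library size by TMM) in the Ephb4 control bleomycin libraries and at 14.0, 9.53, 10.1 and 4.93 CPM in the Ephb4 CKO bleomycin libraries. It stood at 24.2, 4.00, 33.4 and 2.32 CPM in Ephb4 control PBS and at 7.70, 23.6, 8.97, 4.01 and 4.05 CPM in Ephb4 CKO PBS. The groups overlapped in both pairs, and Ephb4 was 4.00-fold lower in Ephb4 CKO after bleomycin without passing the test (SE 0.79 on the log2 scale, adjusted p = 0.22, edgeR). Total counts ran from 66540022 to 120554468 per library, and no pair of libraries held identical counts. Sex genes did not match the label in 3 libraries, Ephb4 CKO bleomycin mice 1 and 2 and Ephb4 control bleomycin mouse 2, so values without them are given below. Whether these libraries were exchanged with others was not tested, and their group labels, those of 3 of the 8 bleomycin libraries, are less certain for it. The labelled cell type was not evenly borne out by its markers: summed fibroblast markers (14 genes, 11 past the filter on low counts) ran from 5940 to 12100 CPM in Ephb4 control bleomycin but from 14.4 to 7440 in Ephb4 control PBS, from 32.7 to 1940 in Ephb4 CKO PBS and from 16.6 to 1580 in Ephb4 CKO bleomycin. Summed macrophage markers (15 of 15 past the filter) ran from 1460 to 20600 CPM in Ephb4 control bleomycin, from 10900 to 47000 in Ephb4 control PBS, from 24400 to 40500 in Ephb4 CKO PBS and from 23800 to 44600 in Ephb4 CKO bleomycin. They exceeded the fibroblast sum in 16 of 17 libraries, and no marker of either list was at 0 in a whole group. In these bulk libraries, fewer cells of a type and less RNA per cell cannot be told apart.

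The comparison of Ephb4 CKO with Ephb4 control after bleomycin is meant to ask how loss of Ephb4 in Col1a2-expressing cells bears on the fibrotic transcriptome. The groups carry the same alleles and differ by 4-hydroxytamoxifen or corn oil, so exposure to the drug and loss of Ephb4 cannot be told apart. Genotype is used below as a name for this difference. In it, the 3 KDEL receptors and Tmed9 stood lower in Ephb4 CKO, with groups that did not overlap, whereas Tmed2, Tmed3, Tmed7 and Tmed10 overlapped. No member passed an adjusted p of 0.05 in edgeR, nor did any gene (0% of 10481 genes tested). At an unadjusted p under 0.05, 4 of 8 members were lower and 0 higher, against 9.18% of all genes lower and 11% higher. Groups did not overlap for 4 of 8 members on the lower side and 0 on the higher, against 12.2% and 11% of all genes. The members were chosen with earlier results of these data known. These 4 also varied together over the 17 libraries (Pearson r from 0.50 to 0.91), so the counts are not independent evidence. In DESeq2 without a batch term, 1 of 8 members was called lower and 0 higher, against 2.42% and 1.38% of all genes. The study used DESeq2 with a batch term, and the batch of each library is not given in the sources used here. With the sorted run of columns in its place, Kdelr2 was again the 1 member called. The median log2 fold change was -0.40 over the 8 members and 0.01 over all genes.

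Kdelr2 (ENSMUSG00000079111, chromosome 5, 143403838 to 143421901, + strand, GRCm38, 5 exons) encodes a widely expressed receptor of the family. It measured 245, 141, 122 and 155 CPM in Ephb4 control bleomycin and 54.7, 77.2, 62.0 and 57.0 CPM in Ephb4 CKO bleomycin. It measured 69.8, 96.3, 144 and 59.3 CPM in Ephb4 control PBS and 72.6, 60.8, 72.3, 61.5 and 45.6 CPM in Ephb4 CKO PBS. All 4 Ephb4 control bleomycin libraries were therefore above every Ephb4 CKO library, and Ephb4 control PBS mouse 3 lay among them. After bleomycin, Kdelr2 was 2.64-fold lower in Ephb4 CKO (log2 fold change -1.40 ± 0.28 SE, unadjusted p = 0.000154, adjusted p = 0.187, edgeR). By p it ranked 5 of 10481 genes, and DESeq2 called it (adjusted p = 0.00113, or 0.002 with the sorted run of columns as a term). The study had picked Kdelr2 from these same libraries, so its rank is not independent evidence.

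Kdelr3 (ENSMUSG00000010830, chromosome 15, 79516411 to 79527739, + strand, 5 exons) is a family member whose transcription is known to respond to ER stress, and it overlaps Ddx17 on the opposite strand, which the strand-specific alignment separates. It measured 132, 73.1, 52.0 and 66.8 CPM in Ephb4 control bleomycin and 8.31, 28.5, 6.82 and 0.846 CPM in Ephb4 CKO bleomycin. It measured 11.9, 11.9, 65.9 and 0.541 CPM in Ephb4 control PBS and 9.29, 11.1, 14.7, 2.31 and 2.72 CPM in Ephb4 CKO PBS. The Ephb4 control bleomycin libraries and Ephb4 control PBS mouse 3 again stood above all others, and the lowest libraries, Ephb4 control PBS mouse 4 and Ephb4 CKO bleomycin mouse 4, were both under 1 CPM. After bleomycin, Kdelr3 was 7.29-fold lower in Ephb4 CKO (log2 fold change -2.87 ± 1.12 SE, unadjusted p = 0.0214, adjusted p = 0.219, edgeR; adjusted p = 0.0673 in DESeq2). Its standard error was the widest of the 8 genes in each comparison.

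Kdelr1 (ENSMUSG00000002778, chromosome 7, 45872772 to 45883732, + strand, 5 exons) was the steadiest receptor. It measured 93.8, 77.1, 62.1 and 70.7 CPM in Ephb4 control bleomycin and 47.9, 52.7, 56.2 and 50.6 CPM in Ephb4 CKO bleomycin. It measured 51.8, 82.3, 62.2 and 52.9 CPM in Ephb4 control PBS and 64.4, 54.3, 59.8, 43.8 and 45.6 CPM in Ephb4 CKO PBS. The bleomycin groups did not overlap, but the PBS groups, from 43.8 to 82.3 CPM, overlapped both. After bleomycin, Kdelr1 was 1.46-fold lower in Ephb4 CKO (log2 fold change -0.55 ± 0.18 SE, unadjusted p = 0.00772, adjusted p = 0.207, edgeR; adjusted p = 0.057 in DESeq2).

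**Figure D1:**
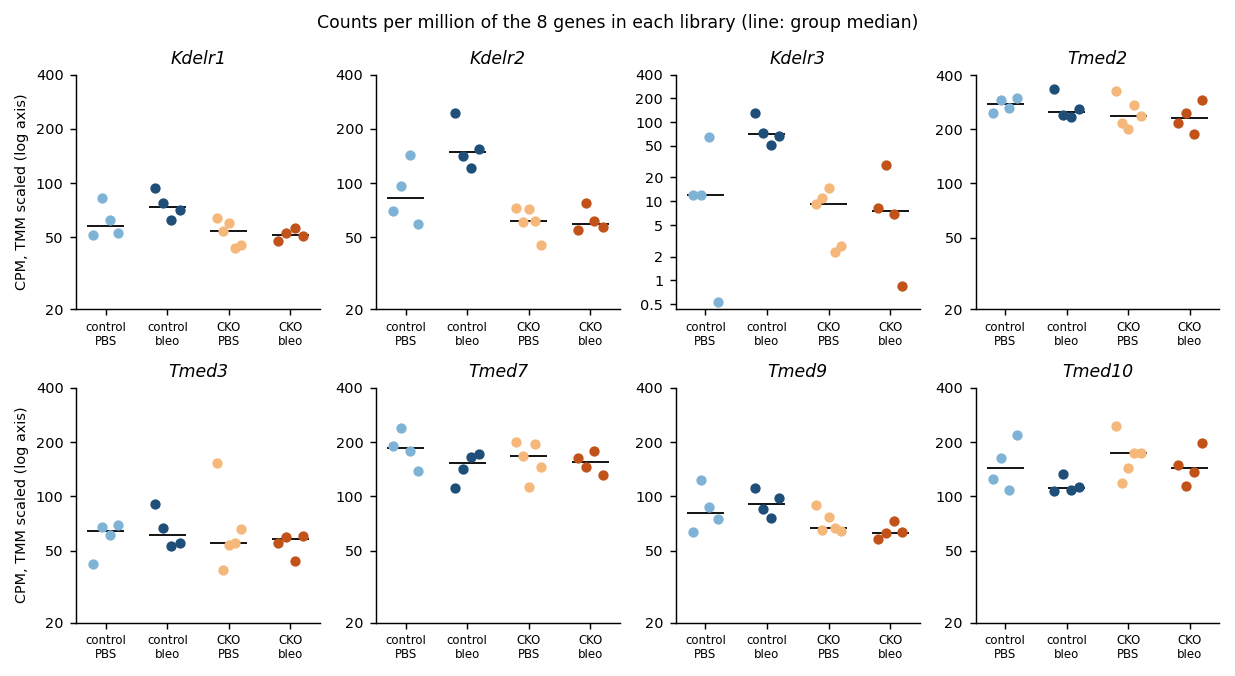
CPM of the 8 genes (log axis, TMM scaled) in the 17 libraries, 1 point per mouse, with a line at each group's median. Kdelr2 ran from 122 to 245 CPM in Ephb4 control bleomycin and from 54.7 to 77.2 in Ephb4 CKO bleomycin, while Tmed2 and Tmed7 overlapped in all groups.

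Among the p24 genes, Tmed9 (ENSMUSG00000058569, chromosome 13, 55573732 to 55597697, + strand, a span that holds the RefSeq start of the window above), of the alpha subfamily, was the one member whose bleomycin groups did not overlap. It measured 112, 85.3, 75.6 and 97.5 CPM in Ephb4 control bleomycin and 57.8, 62.7, 73.1 and 63.3 CPM in Ephb4 CKO bleomycin. The gap between the nearest libraries was narrow, from 73.1 to 75.6 CPM, and the PBS libraries spread from 63.5 to 123 CPM across both genotypes. After bleomycin, Tmed9 was 1.44-fold lower in Ephb4 CKO (log2 fold change -0.53 ± 0.20 SE, unadjusted p = 0.0167, adjusted p = 0.218, edgeR; adjusted p = 0.0899 in DESeq2).

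Tmed10 (ENSMUSG00000021248, chromosome 12, 85340614 to 85374847, - strand), the single delta member and a partner in p24 complexes, pointed the other way. It measured 108, 134, 109 and 113 CPM in Ephb4 control bleomycin and 150, 115, 137 and 197 CPM in Ephb4 CKO bleomycin. Ephb4 CKO bleomycin mouse 2 lay inside the range of Ephb4 control bleomycin and the other 3 lay above it, so the groups overlapped. The log2 fold change was 0.37 ± 0.25 SE (adjusted p = 0.382, edgeR), and it turned to -0.08 with the fibroblast score as a covariate and to -0.04 with the macrophage score. An overlapping gene model on the same strand, Gm47817, could take reads from the count of Tmed10, but held only 1160 counts summed over the 17 libraries.

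Tmed2 (ENSMUSG00000029390, chromosome 5, 124540695 to 124550506, + strand), the single beta member, measured 336, 239, 233 and 259 CPM in Ephb4 control bleomycin and 218, 247, 190 and 292 CPM in Ephb4 CKO bleomycin. Its ranges overlapped in part, between 233 and 292 CPM, with a log2 fold change of -0.17 ± 0.19 SE (adjusted p = 0.591, edgeR). Tmed3 (ENSMUSG00000032353, chromosome 9, 89699206 to 89705068, - strand), of the gamma subfamily, measured 90.6, 66.9, 52.9 and 55.5 CPM against 55.5, 60.0, 44.0 and 60.4 CPM in the same order. Its log2 fold change was -0.27 ± 0.34 SE (adjusted p = 0.64, edgeR), and it had its highest value of all libraries, 154 CPM, in Ephb4 CKO PBS mouse 1. Tmed7, also of the gamma subfamily, measured 111, 141, 166 and 172 CPM in Ephb4 control bleomycin against 164, 145, 179 and 132 CPM in Ephb4 CKO bleomycin, with a log2 fold change of 0.07 ± 0.22 SE (adjusted p = 0.859, edgeR). Tmed7 overlaps Ticam2 on the same strand, so its count is uncertain.

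**Figure D2:**
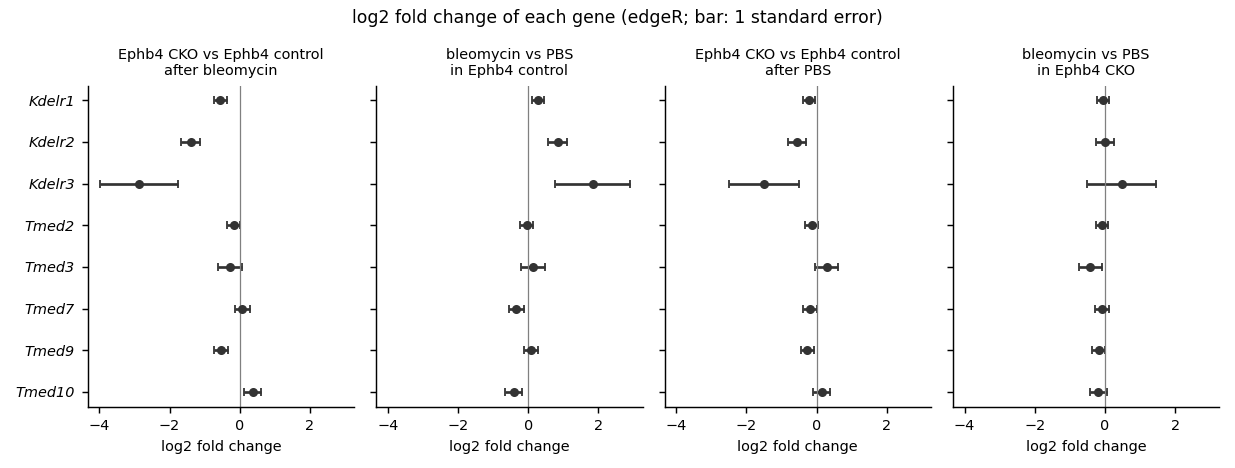
log2 fold change of each gene (points, edgeR) with 1 standard error (bars) in 4 comparisons. The 3 KDEL receptors ran from -2.87 to -0.55 in Ephb4 CKO against Ephb4 control after bleomycin and from 0.29 to 1.85 for bleomycin against PBS in Ephb4 control, none past an adjusted p of 0.05.

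The comparison of bleomycin with PBS in Ephb4 control asks what the injury did to the cells when Ephb4 was intact. It shares the Ephb4 control bleomycin libraries with the comparison above, so the directions are not separate evidence. Here the 3 KDEL receptors were higher on average after bleomycin, although the groups of all 8 members overlapped. No member passed an adjusted p of 0.05 in edgeR (0% of all genes), and in DESeq2 0 of 8 were called, against 0.935% of all genes higher and 0.649% lower. At an unadjusted p under 0.05, 1 of 8 members was higher and 0 lower, against 6.28% and 7.98% of all genes. Groups that did not overlap were found for 0 of 8 members, against 5.72% of all genes higher and 3.20% lower. The one member was Kdelr2, 1.79-fold higher after bleomycin (log2 fold change 0.84 ± 0.28 SE, unadjusted p = 0.00802, adjusted p = 0.296, edgeR; adjusted p = 0.0943 in DESeq2).

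Kdelr3 had the largest difference in the same comparison, 3.59-fold higher (log2 fold change 1.85 ± 1.07 SE, adjusted p = 0.424, edgeR). One library set its size: without Ephb4 control PBS mouse 3, which held 65.9 CPM, the log2 fold change was 3.36. Kdelr1 differed by 0.29 ± 0.18 SE on the log2 scale (adjusted p = 0.451). The p24 genes differed by -0.42 ± 0.25 SE for Tmed10, -0.34 ± 0.22 for Tmed7, -0.04 ± 0.19 for Tmed2, 0.09 ± 0.20 for Tmed9 and 0.14 ± 0.34 for Tmed3, with adjusted p from 0.439 to 0.925 (edgeR). The median log2 fold change was 0.12 over the 8 members and -0.06 over all genes.

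Under PBS, where the comparison of genotypes asks what loss of Ephb4 did without injury, Kdelr2 was 1.47-fold lower in Ephb4 CKO (log2 fold change -0.56 ± 0.26 SE, unadjusted p = 0.047, adjusted p = 1, edgeR). It was 1 of 8 members lower at an unadjusted p under 0.05 and 0 were higher, against 0.563% and 1.43% of all genes, and 0% passed an adjusted p of 0.05. Without Ephb4 control PBS mouse 3 the log2 fold change of Kdelr2 was -0.25 and that of Kdelr3, -1.49 ± 0.99 SE with all libraries, was -0.003. The other members differed by -0.26 to 0.29 on the log2 scale. Between bleomycin and PBS in Ephb4 CKO no member passed an unadjusted p of 0.05, against 0.248% of all genes higher and 0.716% lower, with 0% at an adjusted p of 0.05. Kdelr2 differed there by 0.004 ± 0.26 SE on the log2 scale, and the members ran from -0.42 ± 0.33 SE for Tmed3 to 0.47 ± 0.99 SE for Kdelr3. The value of Kdelr3 was -0.59 without Ephb4 CKO bleomycin mouse 2 and -1.18 and 1.30 in the sorted runs of columns described below.

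The interaction, the difference between the bleomycin effects in Ephb4 CKO and in Ephb4 control, tests whether the genotypes responded differently. It was -0.84 ± 0.38 SE on the log2 scale for Kdelr2 (unadjusted p = 0.043, adjusted p = 0.916, edgeR), the 1 member of 8 lower at an unadjusted p under 0.05, with 0 higher, against 1.57% and 1.89% of all genes. The adjusted test called 0% of genes. Without Ephb4 control PBS mouse 3 this difference was -1.18. For Kdelr3 it was -1.37 ± 1.45 SE and for Kdelr1 -0.33 ± 0.25 SE. Leaving out Ephb4 control PBS mouse 3 took Kdelr3 to -2.86, and leaving out mouse 4 of that group took it to -0.97. A difference in bleomycin response between genotypes was thus not established for any of the 8 genes.

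The receptors did not make up the same mix in every group. Levels were divided by the length of the principal transcript (1599, 1829 and 1411 bases for Kdelr1, Kdelr2 and Kdelr3) before they were set side by side. In Ephb4 control bleomycin, Kdelr2 led with 90.5 ± 29.8 CPM per kb (SD, n = 4), followed by Kdelr3 with 57.4 ± 25.0 and Kdelr1 with 47.5 ± 8.39, and these last neighbours did not differ beyond their spread. In Ephb4 CKO bleomycin, Kdelr2 with 34.3 ± 5.54 and Kdelr1 with 32.4 ± 2.19 CPM per kb stood level and Kdelr3 with 7.87 ± 8.51 came well below them. Kdelr2 supplied 43.5% to 48.1% of the summed level in Ephb4 control bleomycin and 44.3% to 49.1% in Ephb4 CKO bleomycin. Its share was thus similar in both groups. Shares are parts of a whole, so those of Kdelr1 and Kdelr3 then have to move against each other, and a higher share of Kdelr1 in Ephb4 CKO bleomycin goes with a lower level of it. Kdelr3 supplied 25.9% to 32.8% in Ephb4 control bleomycin and 0.945% to 21.2% in Ephb4 CKO bleomycin, and Kdelr1 20.5% to 27.3% and 34.6% to 49.9%. In Ephb4 control PBS, Kdelr3 ran from 0.582% to 28.4%, the latter in mouse 3.

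**Figure D3:**
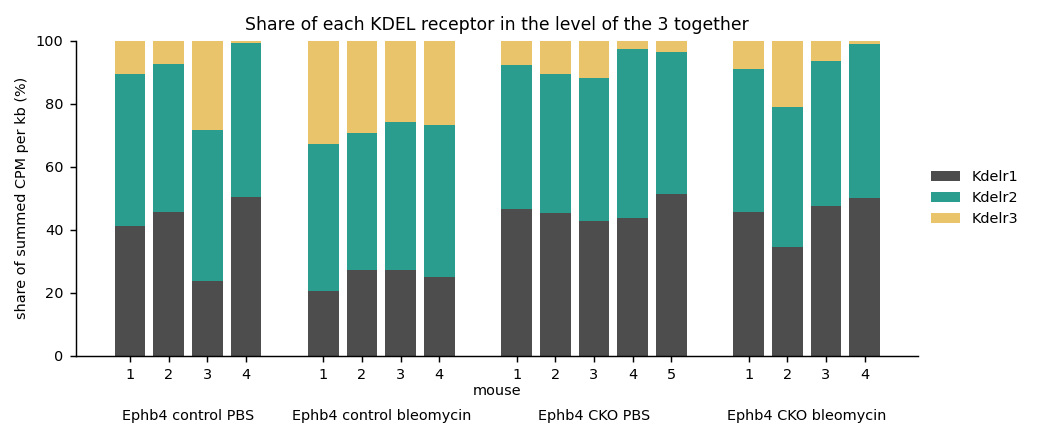
Share of each KDEL receptor (stacked bars, in percent) in the summed CPM per kb of the 3 receptors, 1 bar per mouse. Kdelr3 held 25.9% to 32.8% in the 4 Ephb4 control bleomycin libraries and 0.945% to 21.2% in the 4 Ephb4 CKO bleomycin libraries.

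Per length of the principal transcript, the p24 genes were led by Tmed2 with a mean of 124 CPM per kb over the 17 libraries (91.4 to 162), Tmed7 with 121 (82.1 to 177) and Tmed10 with 101 (72.7 to 165), whose ranges overlap. Tmed9 with 55.4 (40.7 to 86.5) and Tmed3 with 47.8 (29.1 to 114) came lower. The order depends on the length used: over all annotated exons, Tmed2 kept the lead with 102 CPM per kb, while Tmed10, Tmed9, Tmed3 and Tmed7 ran from 25.6 down to 18.5. Of the other p24 genes, Tmed4 measured 28.1 CPM per kb of principal transcript, Tmed5 19.2 and Tmed1 7.59. Tmed11 had no count in any library, which allows up to 0.0249 to 0.0451 CPM (3 counts, counting error only), and Tmed6 had 4 counts in 1 library and none in the other 16.

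Tmed1, another gamma p24 gene, measured 23.6, 15.8, 12.4 and 13.8 CPM in Ephb4 control bleomycin, 8.25, 7.50, 10.9 and 7.29 CPM in Ephb4 control PBS and 10.8, 13.6, 8.00 and 7.27 CPM in Ephb4 CKO bleomycin. The first group lay wholly above the second and overlapped the third. The log2 fold change was 0.95 ± 0.28 SE for bleomycin against PBS in Ephb4 control (adjusted p = 0.275) and -0.73 ± 0.28 SE for Ephb4 CKO against Ephb4 control after bleomycin (adjusted p = 0.218, both edgeR). Tmed4 and Tmed5 differed by 0.17 ± 0.24 SE and -0.11 ± 0.54 SE in the latter comparison.

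The levels of the receptors moved with the fibroblast score, the mean log2 CPM of the fibroblast markers. After bleomycin it averaged 3.22 in Ephb4 CKO and 8.07 in Ephb4 control (difference -4.85, 2-sided exact permutation p = 0.0286, the smallest p that 4 against 4 libraries allow, adjusted p = 0.191 over 20 marker tests). The macrophage score was 1.75 higher (9.18 against 7.43, exact permutation p = 0.0286, adjusted p = 0.191), and the endothelial, epithelial and lymphocyte scores, the last resting on the 1 of 8 lymphocyte markers past the filter, differed by -0.66, -0.09 and 0.43 (adjusted p from 0.572 to 0.952, exact permutation tests). Between bleomycin and PBS in Ephb4 control the fibroblast score differed by 5.52 (exact permutation p = 0.0286, adjusted p = 0.191). The 5 libraries with the highest fibroblast score, the 4 of Ephb4 control bleomycin and Ephb4 control PBS mouse 3, were also the 5 with the highest Kdelr2 and the 5 with the highest Kdelr3. Over the 17 libraries, as a description of cultures that share this makeup, the Pearson r with the fibroblast score was 0.87 for Kdelr3 (Spearman rho 0.85), 0.76 for Kdelr2 (rho 0.71) and 0.51 for Kdelr1 (rho 0.48). Without the 2 libraries farthest from the median score it was 0.84, 0.69 and 0.39. Among deviations from the group means, it was 0.77, 0.53 and 0.10. With the macrophage score, r was -0.84 for Kdelr2 (rho -0.70), -0.75 for Kdelr3 (rho -0.83) and -0.63 for Kdelr1 (rho -0.45), and among deviations from the group means it was -0.69, -0.54 and -0.31. Tmed9 followed the scores less closely, with r of 0.31 for the fibroblast score and -0.43 for the macrophage score, and 0.013 and -0.15 among deviations. For Tmed10 it was -0.70 (rho -0.73) with the fibroblast score and 0.72 (rho 0.94) with the macrophage score, and for Tmed2, Tmed3 and Tmed7 it lay between -0.33 and 0.08 with the fibroblast score.

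**Figure D4:**
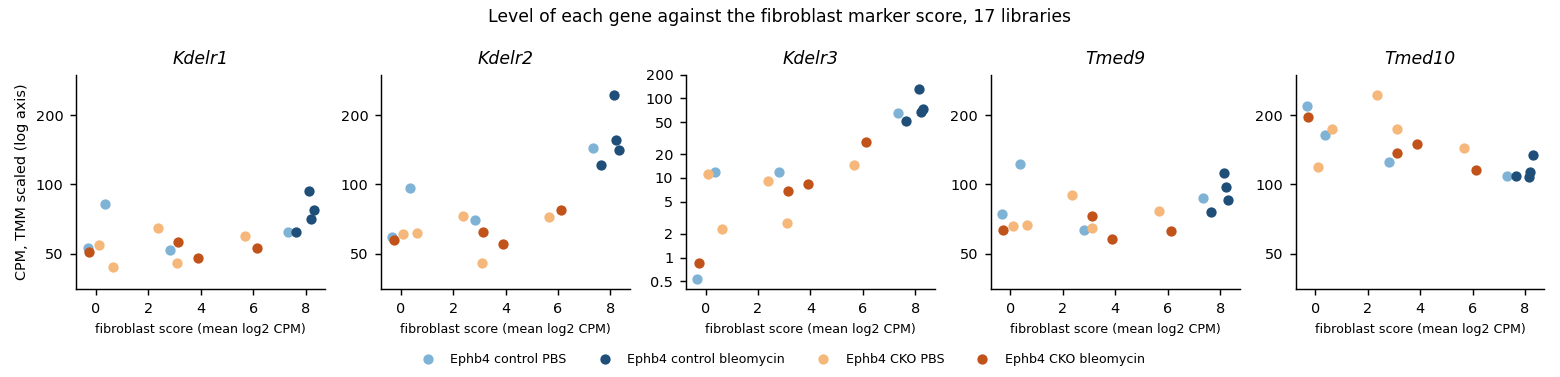
CPM (log axis, TMM scaled) of 5 genes against the fibroblast score (mean log2 CPM of the fibroblast markers), 1 point per library, coloured by group. The 5 libraries with a score of 7.33 to 8.31 held the 5 highest Kdelr2 and Kdelr3 levels, while Tmed10 was higher where the score was low (Pearson r -0.70).

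With the fibroblast score as a covariate, the log2 fold change of Ephb4 CKO against Ephb4 control after bleomycin was -0.99 for Kdelr2, -1.25 for Kdelr3, -0.51 for Kdelr1 and -0.54 for Tmed9. With the macrophage score it was -0.85, -1.45, -0.41 and -0.46, and no gene passed an adjusted p of 0.05 in either fit. The scores of these groups did not overlap. The fibroblast score ran from -0.267 to 6.126 in Ephb4 CKO bleomycin and from 7.639 to 8.309 in Ephb4 control bleomycin. The macrophage score ran from 8.734 to 9.627 and from 5.098 to 8.349 in the same order. These fits therefore cannot tell genotype apart from the makeup of the cultures. For bleomycin against PBS in Ephb4 control, the fibroblast score took the log2 fold change of Kdelr3 to 0.06 and that of Kdelr2 to 0.42. With the 3 libraries of mismatched sex genes left out, Ephb4 CKO against Ephb4 control after bleomycin gave -1.59 for Kdelr2, -4.49 for Kdelr3, -0.54 for Kdelr1 and -0.52 for Tmed9 (adjusted p from 0.301 to 0.354, edgeR). Within the 2 sorted runs of columns, which have the sizes of the 2 sequencing runs but are not labelled as them, Kdelr2 gave -1.32 and -1.47, Kdelr3 -4.19 and -2.32, Kdelr1 -0.48 and -0.63, and Tmed9 -0.43 and -0.64. These fits rest on fewer libraries per group, and the adjusted p of these genes ran from 0.543 to 0.634 (edgeR). Without Ephb4 CKO bleomycin mouse 2, Kdelr3 gave -3.93. For bleomycin against PBS in Ephb4 control, the column runs gave 0.30 and 1.54 for Kdelr2 and 0.84 and 3.91 for Kdelr3 (adjusted p = 0.997 and 0.46 for each, edgeR). Whether these values differed between the runs beyond their spread was not tested. The leading digits of the animal numbers form 2 series, and all 4 Ephb4 control bleomycin mice are of one series and 3 of 4 Ephb4 control PBS mice of the other. With the series as a covariate, Kdelr2 gave 0.85 and Kdelr3 1.06 for bleomycin against PBS in Ephb4 control (adjusted p = 0.757 and 0.832, edgeR). The Ephb4 CKO bleomycin mice are of both series. For Ephb4 CKO against Ephb4 control after bleomycin, the same fit gave -1.40 for Kdelr2, -2.67 for Kdelr3, -0.553 for Kdelr1 and -0.595 for Tmed9 (adjusted p from 0.382 to 0.383, edgeR).

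Among themselves, the 8 genes did not vary as one group. Over the 17 libraries, the Pearson r of log2 CPM was 0.91 between Kdelr1 and Tmed9, 0.85 between Kdelr1 and Kdelr2 and 0.84 between Kdelr2 and Kdelr3. Tmed2 and Tmed3 went together with 0.73, Tmed7 had no r above 0.14 with any other member, and Tmed10 had -0.79 with Kdelr3 and -0.60 with Kdelr2. The 3 genes nearest to Kdelr2 of all 10481 were Copg1 (r = 0.99), a subunit of the COPI coat, Txndc5 (0.98), an ER disulfide isomerase, and Sar1a (0.97), the GTPase that starts COPII coats. Nearest to Kdelr3 were Rbms2 (0.98), Ak1 (0.98) and Fkbp7 (0.98), an ER prolyl isomerase, and nearest to Kdelr1 were Gorasp2 (0.93) and Golga2 (0.92), which encode Golgi stacking and matrix proteins, with Emd (0.92). Nearest to Tmed9 were the SNARE gene Sec22b (0.95), Gmppb (0.94) and Kdelr1, and nearest to Tmed3 were Ppib (0.93), Rpn2 (0.92) and Ssr4 (0.92), which serve folding, glycosylation and translocation in the ER. Nearest to Tmed2 were Gm10698 (0.96), Golt1b (0.91) and Slc35b1 (0.91), to Tmed7 Zbtb11 (0.91), Vamp7 (0.90) and Tmx3 (0.89), and to Tmed10 Psme2 (0.95), Mrpl27 (0.94) and Mapkapk2 (0.94). Each value is over 17 libraries and describes likeness of pattern alone.

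The clients and carriers of the receptors were counted in lists of the same pathway, for Ephb4 CKO against Ephb4 control after bleomycin. At an unadjusted p under 0.05, 9.18% of all genes were lower and 11% higher, and the list counts below are to be read against these shares. No list held a gene with an adjusted p under 0.05 in edgeR. DESeq2 without a batch term called 4 soluble ER residents, 4 COPI genes, 5 COPII genes, 2 other cargo receptors and 2 unfolded protein response factors lower, and none of these lists held a gene called higher, against 2.42% and 1.38% of all genes. The study had picked genes of these lists from these same libraries, among them P4hb, P3h1, Copg1, Copb2, Arcn1, Arf4, Sec23a, Sec24d, Lman1 and Cnih1. The list counts beside the shares of all genes are therefore not independent evidence. Of the 23 soluble ER residents, the cargo that KDEL receptors retrieve and their neighbours in the ER lumen, 11 were lower and 0 higher at an unadjusted p under 0.05, and the median log2 fold change was -0.49. They ran from -3.21 ± 1.17 SE for Serpinh1, the collagen chaperone, to 0.72 ± 0.41 SE for Sdf2l1, a stress-induced chaperone partner. P3h1, a collagen prolyl hydroxylase, stood at -2.11 ± 0.49 SE (adjusted p = 0.187, edgeR; 0.00589 in DESeq2) and at 1.73 ± 0.49 SE for bleomycin against PBS in Ephb4 control. Txndc5, the resident with the smallest p here, stood at -1.42 ± 0.33 SE (adjusted p = 0.187, edgeR; 0.00589 in DESeq2). The general chaperones were closer to 0 than Serpinh1, P3h1 and Txndc5, with Calr the closest. Hspa5, the KDEL-bearing BiP, stood at -0.49 ± 0.31 SE, Hsp90b1 at -0.73 ± 0.30, Calr at -0.14 ± 0.32, Pdia4 at -0.60 ± 0.23 and Manf at -0.77 ± 0.28 (adjusted p from 0.212 to 0.811, edgeR).

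Of the 17 genes of the COPI coat and its GTPase cycle, the carrier of KDEL receptors back to the ER, 7 were lower and 2 higher at an unadjusted p under 0.05, with a median of -0.28. They ran from -1.78 ± 0.65 SE for the zeta subunit gene Copz2 to 0.42 ± 0.19 SE for Arf3, with Copg1 at -0.78 ± 0.19 (adjusted p = 0.187 in edgeR, 0.00589 in DESeq2), Arcn1 at -0.42 ± 0.14 and Copa at -0.29 ± 0.15. Of the 12 genes of the COPII coat and ER exit, 5 were lower and 0 higher, with a median of -0.07. Sec23a (-1.55 ± 0.40 SE), Sec24d (-1.32 ± 0.34) and Sec31a (-1.11 ± 0.22), which build the coat, made up most of these, while Sec24a stood at 0.29 ± 0.30. Sec31a was also 0.82 ± 0.22 SE higher for bleomycin against PBS in Ephb4 control (adjusted p = 0.268 in edgeR, 0.0242 in DESeq2).

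Of the 13 other cargo receptors past the filter, 5 were lower and 1 higher, with a median of -0.21. The mannose lectin gene Lman1 stood at -0.91 ± 0.23 SE, Surf4 at -0.61 ± 0.21 and Cnih1 at -0.60 ± 0.15, and Bcap31 was the highest at 0.84 ± 0.31. Of the 16 ER-Golgi SNAREs and tethers, 3 were lower and 0 higher, with a median of -0.14, from -0.66 ± 0.24 SE for Rint1 to 0.33 ± 0.26 for Bnip1, with Gosr1 at 0.20 ± 0.13. Of the 10 unfolded protein response factors, 3 were lower and 0 higher, with a median of -0.02. The 3 were all of the CREB3 family: Creb3l1, which is known to drive collagen secretion genes, at -2.48 ± 0.84 SE, Creb3l2 at -1.25 ± 0.42 and Creb3 at -0.56 ± 0.17. Xbp1 stood at 0.09 ± 0.24 and Atf6b was the highest of the list at 0.39 ± 0.26. The fibroblast and macrophage scores moved with this comparison, and their part in these list counts was not tested.

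**Figure D5:**
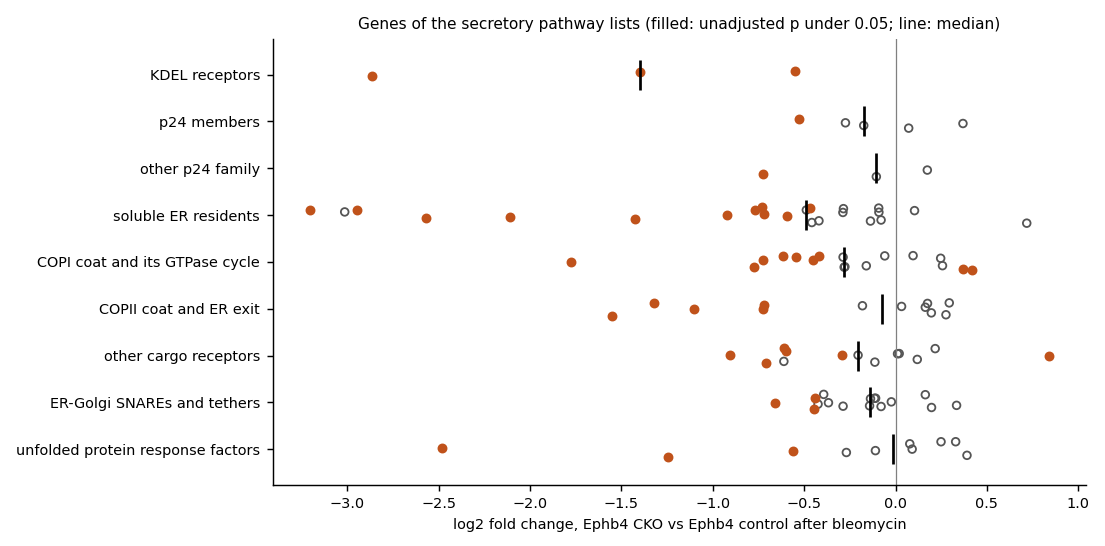
log2 fold change of single genes (points, edgeR) in the KDEL receptors, the p24 members and 7 lists of the same pathway, for Ephb4 CKO against Ephb4 control after bleomycin. Filled points have an unadjusted p under 0.05 and lines mark medians, which were -1.40 for the KDEL receptors, -0.17 for the p24 members and -0.49 for the soluble ER residents.

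For bleomycin against PBS in Ephb4 control, the same lists held 3 soluble ER residents higher and 1 lower at an unadjusted p under 0.05, 1 COPI gene higher, 5 COPII genes higher, 1 other cargo receptor higher and 1 lower, 1 SNARE or tether lower and 1 unfolded protein response factor higher. The shares of all genes were 6.28% higher and 7.98% lower, beside which the higher genes were 3 of 23 residents, 1 of 17 COPI genes and 5 of 12 COPII genes. The fibroblast score differed by 5.52 between these groups, and its part in these counts was not tested. The study had picked genes of these lists with the same Ephb4 control bleomycin libraries, so the counts are not independent evidence. Sdf2l1 was the resident on the lower side (-1.05 ± 0.42 SE, adjusted p = 0.323, edgeR). Serpinh1 stood at 2.42 ± 1.13 SE (adjusted p = 0.349, edgeR) in the same comparison. DESeq2 called 1 resident and 1 COPII gene, P3h1 and Sec31a.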

How the data were processed

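Total RNA libraries (TruSeq stranded) of 17 mice were sequenced in 2 runs of 8 and 9 libraries, and the run of each library is not given in the sources used here. The authors trimmed reads (cutadapt 1.18 per the processing notes), aligned them to GRCm38 with HISAT2 2.1.0, estimated reference transcripts with StringTie and deposited 1 table of raw counts per gene, from 66540022 to 120554468 counts per library.

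Genes above 10 CPM in at least 2 libraries were kept (10481 of 55421), scaled by TMM and tested with the quasi-likelihood test of edgeR 4.0.16 (R 4.3.3) in 1 model of 4 groups over all libraries, with Benjamini-Hochberg adjustment over the kept genes at 0.05. DESeq2 1.42.0, which the study ran with a batch term, and limma voom (3.58.1) were alternatives. Scripts were tested on simulated data. Scores were compared by exact permutation tests. Levels, shares and correlations are descriptions.

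The members and lists were chosen with earlier results of these data known. Named genes were the members, the genes of each list with the highest and lowest fold change (genotypes after bleomycin) and the smallest p (bleomycin against PBS in Ephb4 control), preset examples, and the 3 genes most like each member.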

Additional observations from a re-analysis of the deposited data

How the results depend on the processing

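No gene was called in any comparison with edgeR, whereas DESeq2 called 399 genes for Ephb4 CKO against Ephb4 control after bleomycin (387 with the column runs as a term) and 166 for bleomycin against PBS in Ephb4 control (231 with the term). It called 1 gene for the genotypes under PBS (0 with the term), 1 for bleomycin in Ephb4 CKO with or without the term, and 1 for the interaction with the term. Leaving out 1 library gave 0 to 1 genes for Ephb4 CKO against Ephb4 control after bleomycin (1 without Ephb4 control bleomycin mouse 2) and 0 to 2 for bleomycin against PBS in Ephb4 control (2 without Ephb4 CKO bleomycin mouse 2). The cause of these differences was not tested.

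The median of the 8 members moved to 0.44 for bleomycin against PBS in Ephb4 control in column run 2 alone, to -0.52 and 0.087 for the genotypes under PBS in runs 1 and 2 alone, and to 0.067 and -0.72 for the interaction. Those within-run fits were added after the data were seen. In run 2 alone, the genotypes under PBS gave 0.057 for Kdelr1, 0.012 for Kdelr2, 0.29 for Kdelr3 and 0.11 for Tmed9, opposite in sign to the values with all libraries. Tmed10 turned to -0.077 and -0.038 after bleomycin with the fibroblast and macrophage scores as covariates, and to 0.10 for bleomycin against PBS in Ephb4 control with the fibroblast score. Tmed3 ran from -0.58 to 0.04 for bleomycin in Ephb4 CKO when 1 library was left out, the last without Ephb4 CKO PBS mouse 1. Several of these values are close to 0. A sign change was not counted for members whose difference over all libraries was smaller than its standard error. For Ephb4 CKO against Ephb4 control after bleomycin, the log2 fold change of Kdelr2 stayed between -1.59 and -0.85 in these fits, with adjusted p from 0.00113 to 1. No paired analysis was possible because the mouse numbers follow accession order and only name the libraries. The number series of the animals, fitted as a covariate, left 0 genes called in each comparison and took the genes at an unadjusted p under 0.05 for bleomycin against PBS in Ephb4 control from 658 higher and 836 lower to 336 and 292, and for Ephb4 CKO against Ephb4 control after bleomycin from 1157 and 962 to 574 and 761. Nothing in the sources says which libraries share a run, so the run cannot be told apart from other differences between libraries.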
